A study of Arabidopsis thaliana with 8 samples.

Results

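The major latex-like proteins (MLP) described here are MLP28, MLP31, MLP34, MLP43, MLP423, MLP328 and MLP329 of Arabidopsis thaliana. They were picked by their loci and by their log2 ratios between a pair of embryo crosses, so those ratios are given as a description, without a test. Of the 7 listed genes, 6 had a spot on the array, among 24648 loci in all. No spot carried the locus of MLP329 (AT2G01530), which has no value here.

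Isolated embryos were profiled 3 d and 6 d after pollination on 2-colour arrays, with 4 arrays per stage called biological replicates in the design text. On each array, embryos of M0191 (female) pollinated by bdl (male) were set against embryos of M0171 (female) pollinated by Col-0 (male). They are called the bdl cross and the Col-0 cross here. The labels give Col-0 as the ecotype of both crosses. They do not say what M0191 and M0171 carry, and since the mothers differ as well as the fathers, no difference can be assigned to 1 parent. By the labels dyes were swapped within each stage: Cy5 marked the bdl cross on replicates 1 and 2, and Cy3 on replicates 3 and 4. At 3 d the blank spots did not follow this: their median log2 ratio was 1.28 and 0.79 on replicates 1 and 4 but −1.18 and −1.32 on replicates 2 and 3. The means of members with 4 values are the same under either pairing, and a dye term that follows the blank spots called 4859 genes at 3 d in place of 2516 by the labelled dyes. The name bdl stands for bodenlos, known for a stabilised form of the auxin repressor IAA12. At 3 d the files gave the signal of each cross. At 6 d log2 ratios alone were analysed, and their direction (bdl over Col-0 cross) was carried over from the 3 d columns of the same table. A log2 ratio above 0 means a higher value in the bdl cross.

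MLPs are named after abundant proteins of opium poppy latex and share the Bet v 1 fold, a small cup with a hydrophobic cavity that can hold ligands. The abscisic acid receptors of the PYR/PYL family have a related fold. In Arabidopsis, MLP28 and MLP423 are known as partners of LCR, an F-box protein that marks proteins for degradation and whose own mRNA is a microRNA target. MLP43 is known as a positive regulator of abscisic acid responses. MLP328 and MLP329 also bear the names ZCE1 and ZCE2, for their response to a cinnamic acid isomer.

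The 27387 gene probes held 22198 to 25192 values on the 3 d arrays, and 74.2% to 81.1% of them lay above the 95th percentile of blank spots in at least 1 channel. With 4 arrays a stage, the precision of each mean is limited by that number. For the labelled tissue, 18 embryo genes were looked at, of which 17 had a spot, and all 17 were above blank spots on at least 2 arrays in each cross. Genes of endosperm and seed coat, the tissues around the embryo, were also above blank spots on at least 2 arrays in each cross, at 12 of 14 and 15 of 16 genes with a spot. Detection above blank spots therefore does not tell embryo from these tissues.

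MLP28, MLP31, MLP34 and MLP43 lie close together on chromosome 1. By the brightest probe of each gene, all 4 were lower in the bdl cross on every array at 3 d and higher on every array at 6 d. The median over the 4 genes was −1.68 at 3 d and 1.19 at 6 d on the log2 scale. The 3 d median was −0.96 without replicate 1, which held a very low MLP31 value. The other two measured members, MLP423 and MLP328, were above 0 on every array at both stages and read higher at 6 d. Of genes with 4 values at 3 d, 26.9% were below 0 on all 4 arrays and 26.8% above, and at 6 d 35.6% were above. Of genes with 8 values, 7.07% were below 0 on all 4 arrays at 3 d and above 0 on all 4 at 6 d, and 16.4% were above 0 on all 8. The mean was at most −1 in 4 members at 3 d, as in 2.81% of genes, and at least 1 in 4 members at 6 d, as in 17.9% of genes. A mean of at most −1 at 3 d with at least 1 at 6 d was seen in 0.303% of these genes and in 2 of the 6 members, MLP28 and MLP43. These shares are background, and since the same ratios chose the members nothing is read from them.

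MLP28 (AT1G70830), one of the known LCR partners, was lower in the bdl cross at 3 d on each of its probes. The array holds 3 MLP28 probes, numbered here in the order of their reporter names. Probe 2, the brightest, read 11838, 13755, 5422 and 10618 in the Col-0 cross on replicates 1 to 4 at 3 d. In the bdl cross it read 2030, 2242, 968 and 2080. The ranges did not overlap, which is a description alone, since the share of all genes with separate ranges is not given here. Replicate 3 was the dimmest in each cross. The log2 ratios were −2.54, −2.62, −2.49 and −2.35, a mean of −2.50 ± 0.11 (SD, n = 4), or 5.66-fold lower in the bdl cross. At 6 d the same probe read 1.43, 1.52, 1.52 and 1.47, a mean of 1.49 ± 0.04 (SD, n = 4), or 2.80-fold higher. Every array of a stage lay on its own side of 0, and the means differed by 3.99 from 3 d to 6 d.

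The other MLP28 probes showed how far this pattern depends on the spot. Probe 3 followed probe 2, with a mean of −2.33 ± 0.13 at 3 d and 1.43 ± 0.08 at 6 d (SD, n = 4). Its signals were 4907 to 10917 in the Col-0 cross and 991 to 2282 in the bdl cross. Probe 1 was dim, at 244 to 521 in the Col-0 cross and 62.0 to 154 in the bdl cross, where 3 of 4 arrays were above blank spots. It was lower in the bdl cross at 3 d (−1.78 ± 0.32, SD, n = 4) but read 0.21, 0.39, −0.39 and −0.64 at 6 d. At 6 d it was therefore above 0 where the labels put the bdl cross in Cy5 and below 0 where they put it in Cy3. The mean over all 3 probes was −2.20 at 3 d and 0.94 at 6 d, the latter more than 1.5 times smaller than for probe 2.

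MLP34 (AT1G70850), the third gene of the cluster in chromosome order, varied widely in signal between arrays, yet its ratio kept 1 sign within each stage on both of its probes. Probe 1 read 935, 123, 2462 and 3021 in the Col-0 cross and 382, 103, 831 and 1193 in the bdl cross. The ranges overlapped, yet on each array the bdl cross was the lower. Its log2 ratios at 3 d were −1.29, −0.25, −1.57 and −1.34 (mean −1.11 ± 0.59, SD, n = 4), the one near 0 coming from the dim spot of replicate 2. At 6 d they were 0.91, 1.01, 1.05 and 0.90 (mean 0.97 ± 0.07, SD, n = 4). Probe 2 had no such dim spot on replicate 2 and read −1.02, −1.22, −1.46 and −1.48 at 3 d. At 6 d it read 1.39, 1.42, 1.37 and 1.40, so its arrays spread less than those of probe 1 at both stages. The probes gave 2.16-fold and 2.46-fold lower values at 3 d, and 1.96-fold and 2.63-fold higher values at 6 d. Probes 1 and 2 are annotated to different transcripts of the gene in the files.

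MLP43 (AT1G70890), the member linked to abscisic acid responses, was lower in the bdl cross on each array at 3 d, as were 26.9% of genes with 4 values. It read 225, 290, 330 and 266 in the Col-0 cross at 3 d, and 74.0, 182, 157 and 118 in the bdl cross, where replicate 1 was not above blank spots. The log2 ratios were −1.61, −0.67, −1.07 and −1.17, a mean of −1.13 ± 0.38 (SD, n = 4), or 2.19-fold lower. At 6 d they were 1.59, 1.42, 1.36 and 1.30, a mean of 1.42 ± 0.13 (SD, n = 4), or 2.67-fold higher.

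MLP31 (AT1G70840) lay close to the blank spots, and 1 array set its 3 d mean. It read 62.4, 122, 90.6 and 155 in the Col-0 cross at 3 d but 1.00, 53.1, 43.7 and 97.0 in the bdl cross, so the ranges overlapped. The log2 ratios were −5.96, −1.20, −1.05 and −0.68, a mean of −2.22 ± 2.50 (SD, n = 4). The first rested on the bdl signal of 1.00, below the blank spots of that array. With the dye term kept, the fitted mean was −1.03 without replicate 1, against −3.41 without replicate 2. With no dye term these were −0.98 and −2.56. With an offset of 50 added to both channels the mean was −0.74. At 6 d the arrays read 0.90, 0.71, 1.32 and 0.91, a mean of 0.96 ± 0.26 (SD, n = 4), or 1.95-fold higher. All 4 values at each stage still lay on 1 side of 0.

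**Figure D1:**
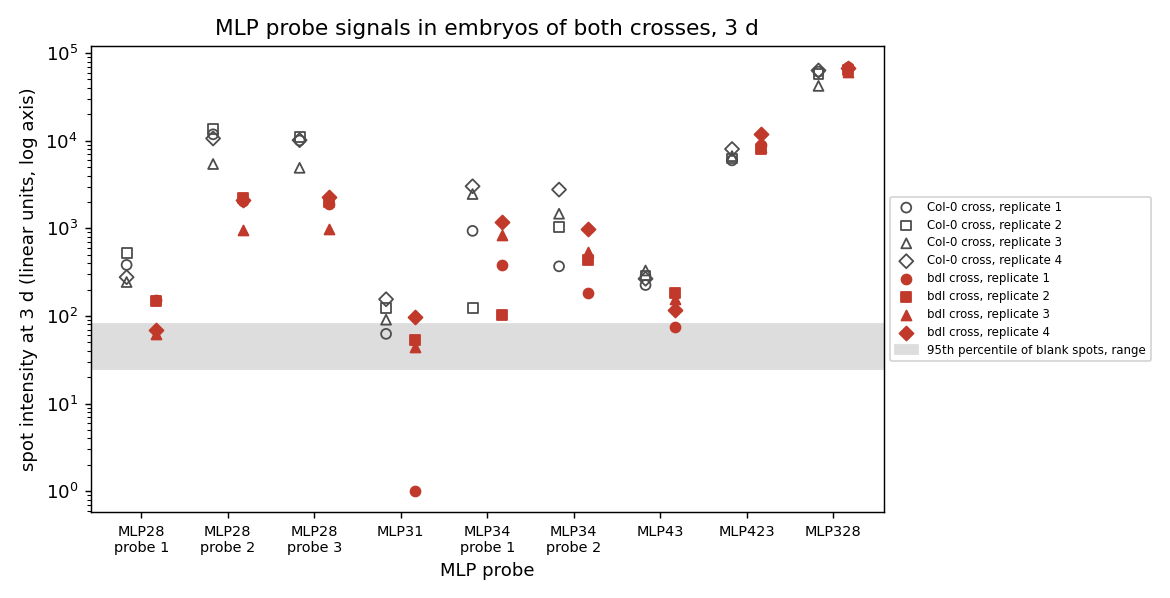
Spot intensity at 3 d (log axis) of the 9 probes of the 6 measured MLP genes, with open symbols for the Col-0 cross, filled symbols for the bdl cross and a marker shape for each replicate. The grey band spans the 95th percentiles of blank spots over arrays and channels; MLP31 and the first MLP28 probe lie near it, MLP31 at 1.00 in the bdl cross on replicate 1, while MLP28 probes 2 and 3 are separated between the crosses.

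MLP423 (AT1G24020), the other known LCR partner, differed little at 3 d and most of all members at 6 d. It read 5968, 6262, 6676 and 8042 in the Col-0 cross at 3 d and 8955, 8021, 8552 and 12014 in the bdl cross. The ranges overlapped narrowly, although the bdl cross was the higher on each array, with log2 ratios of 0.59, 0.36, 0.36 and 0.58 (mean 0.47 ± 0.13, SD, n = 4). At 6 d the ratios were 4.22, 3.88, 3.66 and 3.00, a mean of 3.69 ± 0.51 (SD, n = 4), or 12.9-fold higher. The lowest of these was replicate 4, and 78.2% of genes had a smaller SD at that stage.

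MLP328 (AT2G01520) lay near the top of the intensity scale. It read 61472, 57403, 42254 and 63369 in the Col-0 cross at 3 d and 69188, 64409, 60891 and 66988 in the bdl cross. The highest signal of any gene probe was 65461 to 74291 for the Col-0 cross and 73384 to 77044 for the bdl cross, and the files carry no flag for saturated spots. The log2 ratios at 3 d were 0.17, 0.17, 0.53 and 0.08 (mean 0.24 ± 0.20, SD, n = 4), the highest from the array with the dimmest Col-0 signal. Leaving out 1 array moved the fitted mean between 0.12 (without replicate 3) and 0.35 (without replicate 4). At 6 d they were 1.73, 1.72, 1.70 and 1.74, a mean of 1.73 ± 0.02 (SD, n = 4), or 3.31-fold higher. Of genes with 4 values at 6 d, 0.304% had a smaller SD.

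**Figure D2:**
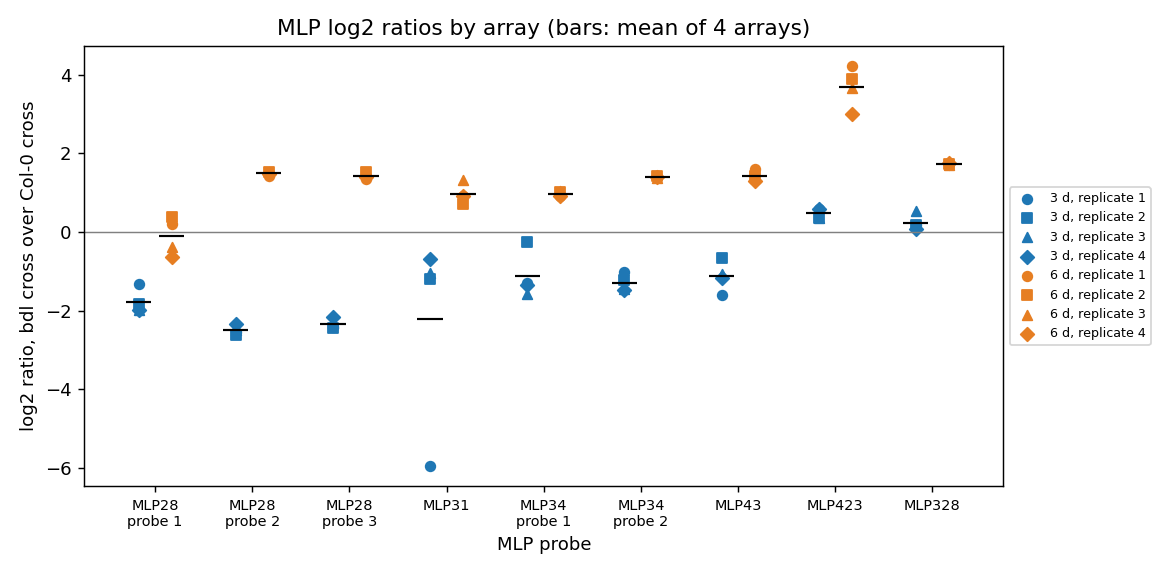
Log2 ratio (bdl over Col-0 cross) for the 9 MLP probes on each array at 3 d (blue) and 6 d (orange), with bars at the mean of 4 arrays. Probes of MLP28, MLP31, MLP34 and MLP43 lie below 0 at 3 d and above it at 6 d, apart from MLP28 probe 1, whose 6 d values run from −0.64 to 0.39; MLP423 and MLP328 lie above 0 throughout.

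The median over the measured members was −1.12 at 3 d and 1.45 at 6 d, beside −0.005 and −0.016 over all genes tested. With dim spots removed, leaving probes above blank spots in both channels on all 4 arrays, 4 members stayed at 3 d with a median of −0.44. MLP31 and MLP43 were among those left out.

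Markers of other tissues, and some of the embryo, differed between the crosses beside these ratios. At 3 d the summed signal of the 12 endosperm genes with 4 values was 18504 to 26195 in the bdl cross and 10938 to 14820 in the Col-0 cross. That of 14 seed coat genes was 163977 to 271492 and 104004 to 184270. Such sums are set mostly by the brightest genes. Mean bdl cross signals of the seed coat genes ran from 158 (MUM4) to 53495 (BAN). Of 12 endosperm genes tested at 3 d, 5 were called higher and 0 lower, and of 15 seed coat genes 6 and 0 (limma, adjusted p under 0.05, which 7% of all genes passed as higher and 6.08% as lower). FIS2 and IKU2, an imprinted regulator and a receptor kinase of endosperm, were above blank spots on 0 arrays in the bdl cross and 1 in the Col-0 cross. TT16, a seed coat factor, was above them on 1 array in the bdl cross and 0 in the Col-0 cross by its brightest probe. These genes thus lay near the blank spots in both crosses. At 6 d, 6 of 12 endosperm genes were called higher and 0 lower, and 10 of 14 seed coat genes higher and 1 lower, beside 26.7% of all genes in each direction. The summed signal of 17 embryo genes at 3 d was 29318 to 58235 in the bdl cross and 23101 to 45403 in the Col-0 cross. It was the higher in the bdl cross on each array, but bright genes weigh most in it. LEC1 alone read 21620, 13952, 4790 and 40995 in the bdl cross and 15064, 9703, 3529 and 25705 in the Col-0 cross. The sum therefore does not show that embryo genes in general read higher in the bdl cross. Of these 17 genes, 6 were called higher and 6 lower at 3 d. Of 16 embryo genes tested at 6 d, 8 were called higher and 4 lower. The part of these tissues in the MLP ratios was not tested. In bulk RNA, fewer cells of a type and less RNA per cell cannot be told apart.

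The clustered members were compared with their neighbours on the chromosome, chosen by RefSeq order (TAIR10.1 gene table, used for order alone) after the members' values were known. Between MLP34 and MLP43 lie AT1G70860, AT1G70870 and AT1G70880, the last pair annotated in the files as Bet v 1 family genes. AT1G70860 had no spot and AT1G70870 had too few values for a fit. AT1G70880 read 0.12 ± 0.36 at 3 d (limma adjusted p = 0.834) and −1.56 ± 1.26 at 6 d (adjusted p = 0.371), where the errors, here and in all fitted values that follow, are standard errors of the limma fit. Of 5 genes before MLP28 and 5 after MLP43, the next neighbour CLE17, which encodes a CLE signalling peptide, fell at both stages (−1.11 ± 0.14 and −0.32 ± 0.07, adjusted p = 0.039 and 0.0311). PIN3, an auxin efflux carrier at the end of the stretch, read −0.54 ± 0.16 at 3 d (adjusted p = 0.121) and fell at 6 d (−3.32 ± 0.21, adjusted p = 0.00339). Of the other 7 flanking genes fitted at 3 d, 0 were called, beside 13.1% of all genes. At 6 d, where 53.4% of all genes were called, AT1G70780 (−0.58, adjusted p = 0.00773) and DEP (−0.79, adjusted p = 0.047) fell, and AT1G70790 (0.62, adjusted p = 0.0123) and AT1G70820 (0.63, adjusted p = 0.0421) rose. Probe sequences were not analysed here, so signal shared between near copies in the cluster could not be examined.

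**Figure D3:**
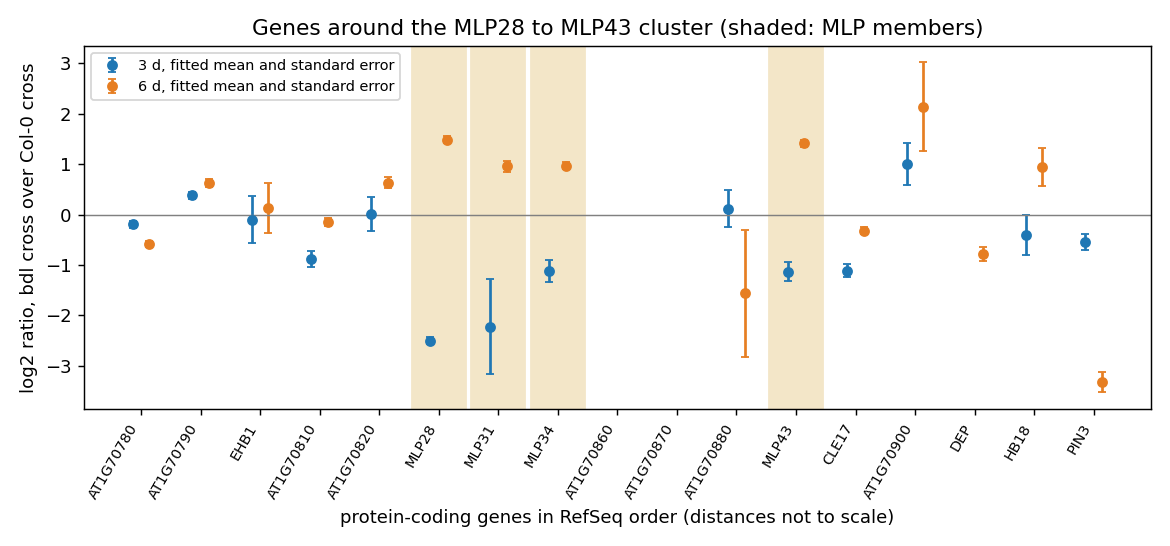
Fitted log2 ratio (bdl over Col-0 cross) with its standard error at 3 d (blue) and 6 d (orange) for protein-coding genes in chromosome order around the MLP cluster, whose measured members are shaded; genes without a point were not fitted. The shaded genes lie below 0 at 3 d and above 0 at 6 d, while CLE17 lies below 0 at both stages and PIN3 reaches −3.32 at 6 d.

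Among 20 other Bet v 1 and MLP genes, 19 had a spot. At 3 d, 3 rose, 1 fell and 8 did not pass of 12 tested, beside 7% of all genes called higher and 6.08% lower. At 6 d, 3 rose, 1 fell and 9 did not pass of 13, beside 26.7% of all genes in each direction. The median of the list was 0.39 at 3 d and 0.16 at 6 d.

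The neighbours AT4G23680 and AT4G23670 on chromosome 4 both rose at 6 d, and only the first was called at 3 d. AT4G23680, annotated in the files as related to major latex protein, read 298, 152, 179 and 662 in the Col-0 cross and 4572, 1719, 1936 and 5445 in the bdl cross at 3 d. It rose 11.1-fold (3.48 ± 0.13, limma adjusted p = 0.0225). At 6 d it read 3.47, 3.05, 3.10 and 3.53 and rose 9.75-fold (3.29 ± 0.13, adjusted p = 0.00261). AT4G23670 read 1791, 2325, 2350 and 2940 in the Col-0 cross and 1231, 1752, 1579 and 2411 in the bdl cross at 3 d, a log2 ratio of −0.45 ± 0.08 that did not pass (adjusted p = 0.061). At 6 d its ratios were 3.29, 2.88, 2.84 and 3.34, and it rose 8.51-fold (3.09 ± 0.14, adjusted p = 0.00268). Its difference between stages was 3.54 (adjusted p = 1.9e-05), and that of AT4G23680 was −0.19 (adjusted p = 0.499), where 46.4% of 18248 genes were called between stages.

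AT4G14060 rose at both stages. Its log2 ratio was 0.58 ± 0.06 at 3 d (adjusted p = 0.0345) and 2.25 ± 0.37 on the later arrays (adjusted p = 0.0196), which read 2.08, 1.49, 1.84 and 3.59. Without replicate 4 its 6 d value was 1.81, and without replicate 1 or 2 it lost the call. AT3G26450 rose at 3 d (0.66 ± 0.07, adjusted p = 0.0329) and read 0.47 ± 0.17 at 6 d (adjusted p = 0.0993). AT1G24000 fell at 3 d (−0.65 ± 0.10, adjusted p = 0.0474), with arrays from −1.31 to −0.01, and lost the call in 14 of 17 alternatives, such as no filter on dim probes, no dye term or a dye term following the blank spots; the other 3 family calls at 3 d held under the last of these. AT1G14960 fell at 6 d on 3 arrays (−1.71 ± 0.29, adjusted p = 0.0451). At 3 d it was above blank spots on 2 arrays in each cross. With the dye term kept it had no 6 d fit without replicate 1, 2 or 4, and with no dye term it lost the call without replicate 1. Leaving out any 1 array with the dye term kept ended all 4 of these family calls at 3 d, as it ended all calls at that stage.

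**Figure D4:**
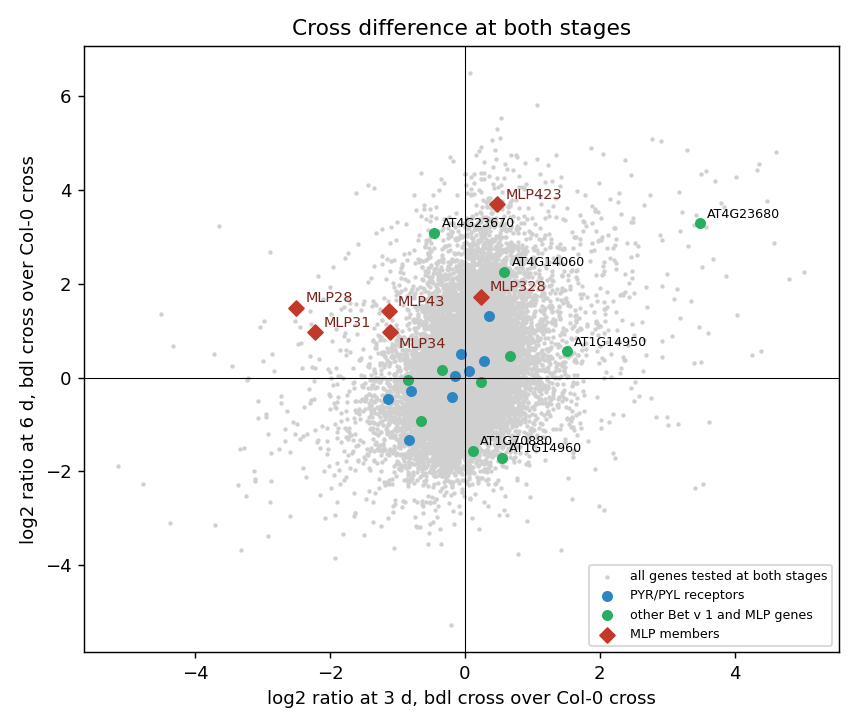
Fitted log2 ratio at 6 d against that at 3 d (bdl over Col-0 cross), with grey points for all genes tested at both stages, diamonds for MLP members, and circles for other Bet v 1 and MLP genes (green) and PYR/PYL receptors (blue). MLP28, MLP31, MLP34 and MLP43 lie in the upper left of the plot, MLP423 and MLP328 at the upper centre, and AT4G23680 at the upper right.

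The PYR/PYL abscisic acid receptors, of the related fold, had calls at shares near those of all genes (13.1% of 19232 at 3 d and 53.4% of 19972 at 6 d). Of 14 with a spot, 11 were tested at 3 d, where 0 rose, 1 fell and 10 did not pass. PYL1 fell (−1.14 ± 0.15, adjusted p = 0.0421), a call lost in 9 of 17 alternatives, such as no filter on dim probes. At 6 d, 2 of 9 rose, 2 fell and 5 did not pass. PYL7 (1.30 ± 0.26, adjusted p = 0.0296) and PYR1 (0.50 ± 0.11, adjusted p = 0.0358) rose, and RCAR1 (−1.33 ± 0.16, adjusted p = 0.0104) and RCAR3 (−0.41 ± 0.07, adjusted p = 0.0182) fell. RCAR3 lost its call in the mean over probes, and PYR1 and PYL7 theirs with no dye term. With the dye term kept, leaving out replicate 1, 2 or 3 ended the call of PYR1, replicate 2, 3 or 4 that of PYL7, replicate 2 that of RCAR1, and any 1 array that of RCAR3.

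LCR (AT1G27340), the F-box gene whose protein is known to bind MLP28 and MLP423, read lower at both stages but was called at 6 d alone. It read 152, 354, 117 and 286 in the Col-0 cross and 104, 187, 78.0 and 230 in the bdl cross at 3 d, lower on each array, but the log2 ratio of −0.59 ± 0.11 did not pass (limma adjusted p = 0.0593). At 6 d its arrays read −1.15, −1.24, −1.60 and −1.23, and it fell 2.47-fold (−1.30 ± 0.09, adjusted p = 0.00418), where 53.4% of all genes were called. The difference between stages was −0.71 (adjusted p = 0.0136), where 46.4% of genes were called. A relation between LCR and the MLP ratios was not tested.

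Genes with the most similar ratios were sought over the 8 arrays among 15600 genes with values on all of them, by the root mean square difference of log2 ratios. AT1G52070, a jacalin lectin family gene, was closest to MLP28 (0.257), DRB5, of the double-stranded RNA-binding family, to MLP43 (0.300), and AT5G43730, annotated as a disease resistance protein, to MLP34 (0.377). GER2 (AT5G39190), a germin-like gene, was closest to MLP423 (0.326), ATARD2 to MLP328 (0.110) and the kinase gene AT1G66920 to MLP31 (0.738), with −5.38 on the array where MLP31 read −5.96. No member was the closest gene of another. MLP34 and MLP43 were each other's nearest members (0.423, rank 9 in each ranking), and MLP43 was the nearest member to MLP28 (1.01, rank 24). The nearest member stood at rank 105 for MLP31 (1.58), 1038 for MLP423 (1.45) and 4379 for MLP328 (1.02). The 8 values of each gene share arrays and both RNA pools, so the ranking is a description.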

How the data were processed

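The members and gene lists were chosen with earlier results of these data known. For the 3 d arrays the authors deposited 1 linear intensity per spot and cross, per the file headers; no value was below 0 and array medians of the log2 ratio were −0.0132 to 0.00507, so background subtraction and channel balance were taken as done, and neither normexp nor loess was used in the chosen setting. Scanner, image software, normalization, slide and scan date were found in neither labels nor files, so no batch was tested. Of the 28399 rows of the deposited log2 ratio table (the authors' values for all 8 arrays), 24661 with at least 2 values at 3 d each matched 1 spot within 1e-06, as log2 of bdl over Col-0 signal; 0 matched with the sign turned. Array columns of this table supplied the 6 d values.

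Spots of 1 probe were averaged, and a gene with several probes took the brightest at 3 d. At 3 d a probe was kept if at least 2 arrays had a channel above the 95th percentile of blank spots (empty and buffer); a value on 3 arrays with both dye orientations was required. Log2 ratios were fitted with limma 3.58.1 (R 4.3.3) with a dye term, and adjusted by Benjamini-Hochberg over all genes tested; errors in fits are standard errors. The stage fit used all 8 arrays with 1 dye term. The p-values set the mean log2 ratio, or its difference between stages, against the spread between arrays that the dye term leaves. That spread was moderated over all genes by limma. The fit was tested on simulated data. Named besides the members were called genes of the family and receptor lists, LCR, and the gene of most similar ratios for each member. Alternatives covered normalization, offset, centring, filter, probe choice, dye term, spread and left-out arrays. Same-numbered arrays of the 2 stages did not vary together (correlations of −0.077 to −0.043 over 15533 genes). Of 24648 loci, 99.3% were found in the RefSeq table. No genome build is named in the files, so no coordinates are given.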

Additional observations from a re-analysis of the deposited data

Results flagged for a closer look

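Several MLP probes changed sides between stages, with every array at 3 d below 0 and every array at 6 d above it. The 6 d minus 3 d differences were 3.99 for MLP28 probe 2, 3.77 for its probe 3, 3.19 for MLP31, 2.08 and 2.69 for MLP34 probes 1 and 2, and 2.55 for MLP43. They are a description: the ratios chose the genes, so the difference between stages was not tested here. By the limma test between stages, AT4G23670 (3.54), AT4G14060 (1.67), PYR1 (0.56), AT1G14960 (−2.33) and LCR (−0.71) differed among the genes that were not members. Of these, AT1G14960 lay near blank spots at 3 d.

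An array far from the other 3 was found in 5 of 58 sets of 4 values, where chance gives about 1 in 20. The MLP31 log2 ratio of −5.96 at 3 d on replicate 1 went with a bdl signal of 1.00. On replicate 3 the bdl signal of MLP28 probe 2 (968) and the Col-0 signal of probe 3 (4907) were low. On non-member genes, PYL1 read −0.63 on replicate 4 and AT3G26450 0.54 on replicate 3 at 3 d.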

How the results depend on the processing

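The number of genes called at 3 d, 2516, was 4007 with an offset of 50 added to both channels, 5371 with the strict filter, 5070 if dye was not modelled, 4859 if the dye term followed the blank spots, and 5714 if the spread followed intensity. Leaving out 1 array gave 0 to 3115 (without dye term 1085 without replicate 2 and 1225 without replicate 3), with 0 in each fit that kept the dye term, where 4610 to 5356 genes had an unadjusted p under 0.05 in limma; fewer degrees of freedom remain there. The median of the measured members was −0.44 at 3 d with the strict filter, which leaves 4 members, and 1.30 at 6 d with the mean over probes. Calls among other Bet v 1 and MLP genes ran from 0 to 5 at 3 d and 2 to 5 at 6 d when 1 array was left out. PYR/PYL calls at 3 d were 0 with loess, no filter or the strict filter, 2 without the dye term, with the blank-spot dye term or with the trend, and 0 to 1 with an array left out. At 6 d they were 2 without the dye term and 0 to 3 with an array left out. With replicate number as a block the stage fit called 7503 genes beside 8459; the members' differences cannot move under it, since each has all 8 values. No direction turned in any alternative. With the dye term kept, arrays without 1 replicate moved the MLP31 mean at 3 d from −3.41 (without replicate 2) to −1.03 (without replicate 1). With no dye term it ran from −2.74 (without replicate 4) to −0.98 (without replicate 1), and an offset gave −0.74. The median of the 4 clustered genes at 3 d was −0.96 without replicate 1, an alternative chosen after seeing the data. The causes of these differences were not tested. Signal near that of blank spots limits MLP31, MLP43 and the first MLP28 probe, and signal near the top of the scale limits MLP328.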
